A study of Homo sapiens with 5 samples.

Results

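The autophagy and mitophagy genes of HEK293 cells were compared between the wild-type genotype and the T-to-C variant rs11607019. They were chosen by name, from a list of 45 genes for autophagy initiation, membrane conjugation, cargo receptors and mitophagy, with no threshold on a measured value, though earlier results of these data were known when the list was made. Of the 45, 44 were among the 16677 genes of the deposited count table and all 44 were tested, and MAP1LC3A was not analysed here.

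Autophagy encloses cytoplasm in a double membrane that fuses with the lysosome. A kinase complex built around ULK1 starts the process, a lipid kinase complex built around PIK3C3 marks the membrane with a phosphoinositide, and WIPI and ATG2 proteins read that mark and supply lipid. A chain of conjugating enzymes then attaches small Atg8 proteins (the LC3 and GABARAP families) to the membrane, where cargo receptors bind them. Mitophagy is the same process directed at mitochondria, either through ubiquitin laid down after PINK1 accumulates on damaged mitochondria or through receptors seated in the outer mitochondrial membrane. TFEB and TFE3 are transcription factors that drive lysosomal and autophagy genes when they enter the nucleus.

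HEK293 is an immortal line derived from human embryonic kidney. Poly-A RNA was sequenced in 2 wild-type libraries (labelled Control) and 3 libraries labelled rs11607019, both from cells in basal culture with no added treatment, so neither starvation nor mitochondrial damage was imposed. The series' title places the variant in SIRT3, a mitochondrial deacetylase. Nothing states whether the libraries of a genotype came from separate clones, separate cultures or one culture, so every p-value measures only the spread between these libraries, which may be technical.

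Each library held between 17122569 and 17596084 counts. SIRT3 itself measured 28.9 and 29.3 CPM (the count relative to the library's total, after scaling for composition) in wild type against 26.5, 15.8 and 30.2 CPM in the variant, and these groups overlapped, and gene counts do not show the base at the variant site. Of 6 markers of HEK293, VIM, PAX2 and LIN28B were in the table (summed level 397 to 668 CPM), and NEFL, NEFM and INA were not. None of the 12 markers of blood, endothelium, hepatocytes and kidney tubule was in it, and of 4 fibroblast markers COL1A1 alone was, at 28.4 to 46.3 CPM. The libraries differed in how a gene's level followed the GC content of its transcript. The Spearman correlation over 10854 genes was -0.53 and 0.07 in the wild-type libraries and -0.12, 0.24 and 0.47 in the variant libraries.

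With edgeR's quasi-likelihood test no autophagy or mitophagy gene passed the adjusted threshold of 0.05, and neither did any of the 16310 genes tested (0.0%). The smallest adjusted p among the 44 members was 0.616. DESeq2 called 31 of all genes and limma-voom called 0, and neither called a member. In bulk RNA, a lower level per cell and fewer cells with the transcript cannot be told apart. At an unadjusted p under 0.05, ULK1 was higher in the variant libraries, 1 of 44 against 4.11% of all tested genes, and ATG12 was lower, 1 of 44 against 3.51%. Both directions together made 4.55% of the members and 7.62% of all genes, so the members' share was no larger than the background.

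The log2 fold changes of the members, variant against wild type, ran from -0.53 (ATG12) to 0.50 (ATG2B). The level was higher in the variant for 19 members and lower for 25, with a median of -0.02, and over all genes the median was 0.003. In 29 of 44 members the log2 fold change was smaller than its own standard error (SE). The median SE was 0.18, and the 95% confidence interval stayed within 1 log2 unit on either side of 0 for 41 members, the exceptions being GABARAP, ATG2B and TFEB. The groups overlapped for 37 members. All 3 variant libraries lay above both wild-type libraries for ULK1, PIK3C3 and ATG10 (6.82% of members, 11.8% of all genes), and all 3 lay below for ATG5, ATG12, GABARAPL2 and USP30 (9.09% of members, 13.0% of all genes). The summed level of the 44 transcripts was 3169 and 3484 CPM in wild type and 3066, 3309 and 3459 CPM in the variant, and these ranges overlapped.

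**Figure D1:**
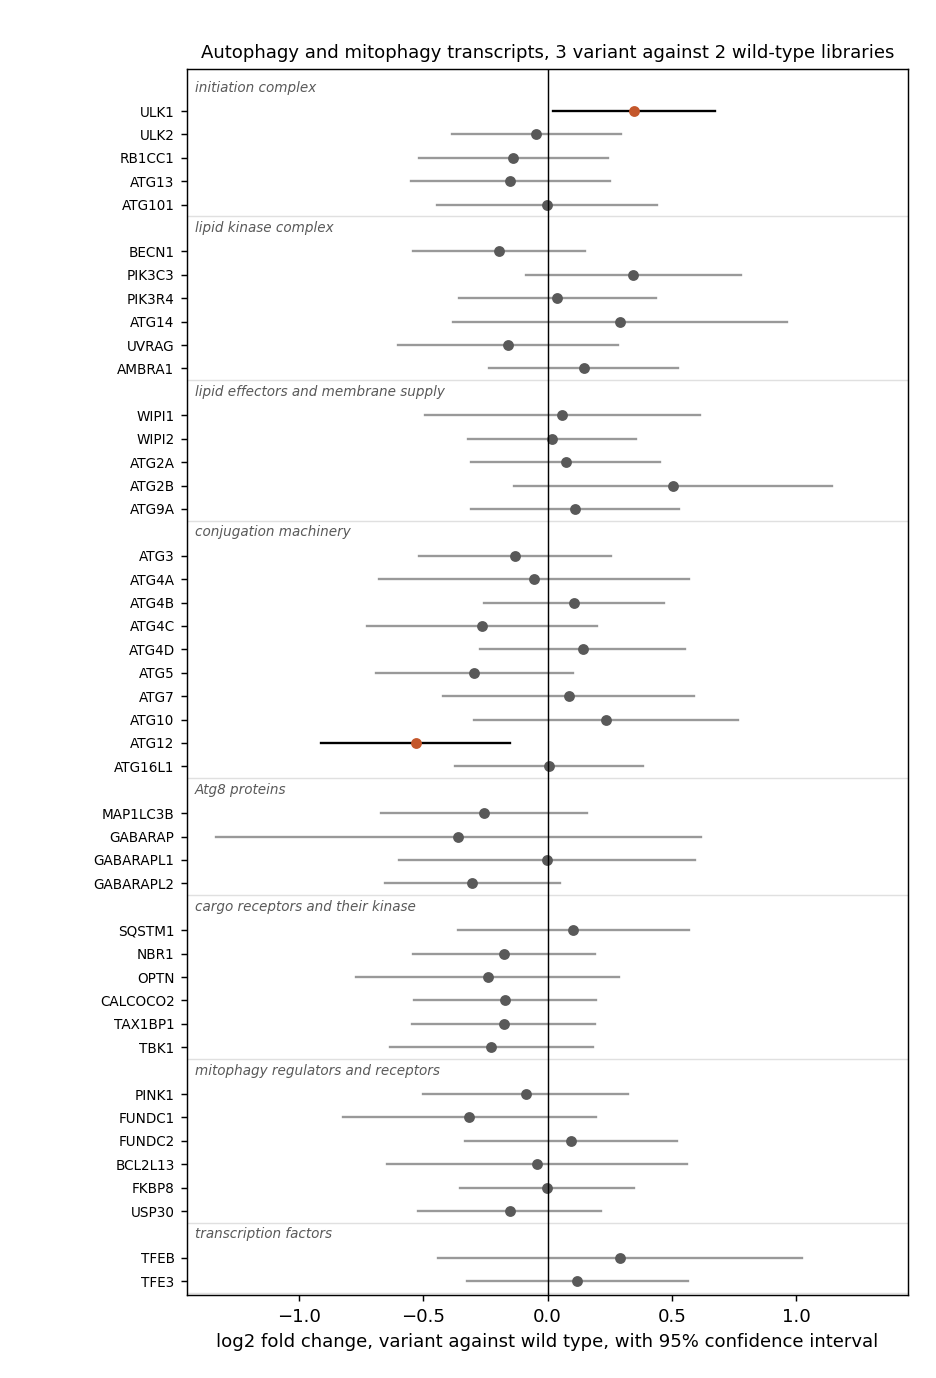
Log2 fold change of each of 44 autophagy and mitophagy genes, variant (3 libraries) against wild type (2 libraries), grouped by role. Points are edgeR estimates and lines are 95% confidence intervals, and the coloured points, ULK1 and ATG12, are those with an unadjusted p under 0.05. Nearly all intervals cross 0.

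In the initiation complex, ULK1 was the 1 member above 0, and the other 4 lay at or below 0. ULK1 (ENSG00000177169, chr12:131894651-131923167, plus strand of GRCh38), the kinase that receives signals from mTORC1 and AMPK, measured 149 and 159.7 CPM in wild type and 177, 203 and 209 CPM in the variant. Every variant library was above both wild-type libraries. The means were 154 ± 7.57 (SD, n = 2) and 196 ± 17.1 (SD, n = 3), here as in the following genes. The log2 fold change was 0.35 (SE 0.15, 95% interval 0.02 to 0.67), and edgeR's quasi-likelihood test gave an unadjusted p of 0.0396, or 0.637 once adjusted over all genes. ULK1 is rich in GC (64.2% of its longest transcript). With GC content and transcript length corrected in each library, its log2 fold change was 0.12 (SE 0.12, unadjusted p 0.325, edgeR adjusted p 0.853). Without variant library 2 or 3 the unadjusted edgeR p was also above 0.05 (0.102 and 0.101), and without variant library 1 it was 0.0204 (log2 fold change 0.42). Without wild-type library 1 or 2 the log2 fold change was 0.30 or 0.40. The unadjusted p stayed under 0.05 with the other scalings and filters, DESeq2 and limma-voom, but not with the replicate number as a block. The adjusted p of ULK1 was at least 0.589 in every alternative.

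The related kinase ULK2 measured 127 ± 17.5 and 123 ± 4.45 CPM (log2 fold change -0.04). The scaffold RB1CC1, which tethers the complex to the forming membrane, and the adaptor ATG13 gave -0.14 and -0.15, and ATG101, which stabilises ATG13, gave -0.00. The groups of these 4 genes overlapped, and a difference between ULK1 and the other subunits was not tested.

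The lipid kinase complex gave 4 values above 0 and 2 below, with a median log2 fold change of 0.09. PIK3C3, the catalytic subunit (chr18:41955206-42087830), measured 56.4 and 56.2 CPM in wild type and 73.5, 56.9 and 84.2 CPM in the variant. The lowest variant library lay just above the wild-type pair and the other 2 lay well above it. Its log2 fold change was 0.35 (SE 0.19, 95% interval -0.09 to 0.78, edgeR adjusted p 0.692). Corrected for GC content and length it was 0.42 (SE 0.23). It was 0.21 without variant library 3, 0.20 with the replicate number as a block, and 0.49 without variant library 2 (unadjusted p 0.0323, edgeR adjusted p 0.947).

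BECN1, the scaffold that joins the kinase to its regulators (chr17:42810134-42833350), measured 88.7 and 100.2 CPM in wild type and 89.0, 80.1 and 78.3 CPM in the variant. Variant library 1 overlapped the lower wild-type library, and the log2 fold change was -0.20 (SE 0.15, edgeR adjusted p 0.756). ATG14, the subunit that directs the complex to autophagosome formation (chr14:55366392-55411858), measured 25.4 and 25.9 CPM in wild type and 46.2, 26.9 and 21.3 CPM in the variant. Its log2 fold change of 0.29 (SE 0.30, edgeR adjusted p 0.821) rested on variant library 1, and without that library it was -0.09. The membrane-bound kinase partner PIK3R4 gave 0.04, UVRAG, which takes the place of ATG14 in the endosomal form of the complex, gave -0.16, and AMBRA1, a regulator that binds BECN1, gave 0.14, each with groups that overlapped.

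All 5 lipid effectors and membrane suppliers had values above 0 as counted, with a median of 0.07, and none of them had groups that separated. Corrected for GC content and length, 3 of the 5 were below 0 (ATG2A -0.17, WIPI2 -0.09 and ATG9A -0.02). ATG2B, a lipid transfer protein that bridges membranes (chr14:96279202-96363870), had the largest log2 fold change above 0 of any member. It measured 57.9 and 46.9 CPM in wild type and 91.1, 87.1 and 44.8 CPM in the variant. Variant libraries 1 and 2 were the highest and variant library 3 was the lowest of all 5. The log2 fold change was 0.50 (SE 0.29, 95% interval -0.14 to 1.14, edgeR adjusted p 0.699). Without variant library 3 it was 0.76 (unadjusted p 0.0019, edgeR adjusted p 0.331, adjusted p 0.331 to 0.998 over all alternatives). WIPI2, which binds the phosphoinositide and recruits ATG16L1 (chr7:5190188-5233826), measured 145 and 166 CPM in wild type and 144, 156 and 172 CPM in the variant. These were among the closest groups of the set (log2 fold change 0.02, SE 0.15, edgeR adjusted p 0.986). WIPI1 (0.06), ATG2A (0.07) and the lipid scramblase ATG9A (0.11) completed the group, and 38.8% of the exon length of ATG9A is shared with another gene model on the same strand.

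Levels of several of these genes moved between libraries together with other genes of their chromosome. On chromosome 14, the median of 367 other genes, as log2 CPM minus the mean of the 5 libraries, was -0.17 and -0.17 in wild type and 0.30, 0.28 and -0.25 in the variant. ATG2B measured -0.11 and -0.42, then 0.54, 0.47 and -0.48, so it was high and low in the same variant libraries as its chromosome. ATG14 measured -0.14 and -0.11, then 0.72, -0.06 and -0.40. Relative to the chromosome's median log2 fold change of 0.31, ATG2B stood at 0.19 and ATG14 at -0.02. PIK3C3 stood at 0.16 relative to chromosome 18 (median 0.19), whose variant library 2 was also the low one. BCL2L13, described among the mitophagy receptors, ran with chromosome 22 in the same way. These 4 genes were chosen for display after their values were seen, and over all 44 members the Spearman correlation of the log2 fold change with the chromosome's median was 0.11, across genes that share libraries and, in part, a chromosome. Relative to their chromosomes, ULK1 (0.43) and ATG5 (-0.42) lay further from 0 than as counted. Over all 44 members the median absolute log2 fold change was 0.15 as counted and 0.14 relative to the chromosome. The part of chromosome-wide differences in these results was not tested further.

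**Figure D2:**
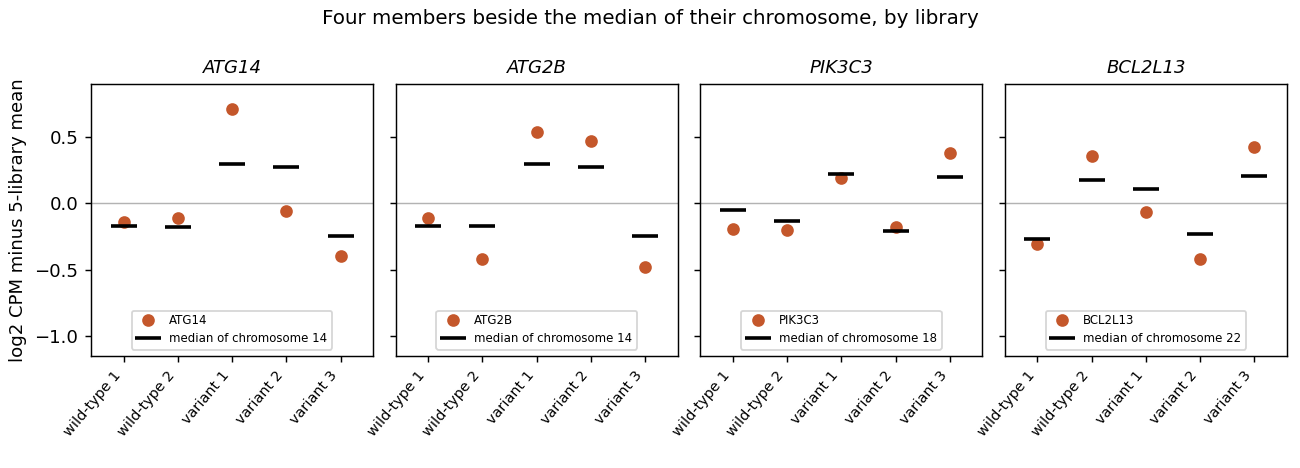
Level of ATG14, ATG2B, PIK3C3 and BCL2L13 (points) and the median of the other genes of the same chromosome (dashes) in each library, as log2 CPM minus the mean of the 5 libraries. ATG2B and chromosome 14 are both high in variant libraries 1 and 2 and low in variant library 3.

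The conjugation machinery divided evenly, with 5 of its 10 members above 0 and 5 below, and contained the largest difference of the set. ATG12 (ENSG00000145782, chr5:115828200-115841858, minus strand), a ubiquitin-like protein that is joined to ATG5 to form the enzyme that lipidates Atg8 proteins, measured 63.1 and 51.2 CPM in wild type. In the variant it measured 38.0, 38.5 and 42.1 CPM. All variant libraries were below both wild-type libraries, and they were closer to each other (39.6 ± 2.24) than the wild-type pair was (57.1 ± 8.38). The log2 fold change was -0.53 (SE 0.17, 95% interval -0.91 to -0.15), and edgeR's quasi-likelihood test gave an unadjusted p of 0.0114, or 0.616 once adjusted. Its transcript is poor in GC (37.5%), and corrected for GC content and length the log2 fold change was -0.34 (SE 0.15, unadjusted p 0.0471, edgeR adjusted p 0.763). Without wild-type library 1 it was -0.37 (unadjusted p 0.119). The adjusted p ran from 0.314 with DESeq2 to 0.998 without wild-type library 1.

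ATG5, the partner of ATG12 (chr6:106045423-106325791), was also lower in every variant library. It measured 63.2 and 56.9 CPM in wild type and 54.5, 51.0 and 41.5 CPM in the variant. The log2 fold change was -0.29 (SE 0.18, 95% interval -0.69 to 0.10, edgeR adjusted p 0.703) and, corrected for GC content and length, -0.11 (SE 0.15). ATG16L1, the third component of that enzyme, did not share this direction. It measured 49.2 ± 2.02 and 49.4 ± 5.27 CPM (log2 fold change 0.01). Of the E1 and E2 enzymes, ATG7 gave 0.09, ATG3 -0.13 and ATG10, which joins ATG12 to ATG5, 0.24. ATG10 was low, at 8.04 and 7.93 CPM in wild type and 9.19, 10.4 and 8.58 CPM in the variant, with groups that did not overlap but an SE (0.24) as large as the difference.

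The 4 ATG4 proteases, which trim Atg8 proteins and release them from membranes, had log2 fold changes on both sides of 0. ATG4B (chr2:241637213-241673857), with the highest CPM of the conjugation group, measured 110.3 and 129 CPM in wild type and 126, 145 and 116 CPM in the variant (log2 fold change 0.11, SE 0.16, edgeR adjusted p 0.886). ATG4A (chrX:108091668-108154671) varied within both genotypes. It measured 21.7 and 32.4 CPM in wild type and 19.0, 34.6 and 24.7 CPM in the variant, so its lowest and highest libraries were both variant libraries (log2 fold change -0.05, SE 0.28, edgeR adjusted p 0.974). ATG4C and ATG4D gave -0.26 and 0.14.

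All 4 Atg8 proteins tested had log2 fold changes at or below 0, with a median of -0.28, and 1 of the 4 had groups that did not overlap. GABARAPL2 (chr16:75566351-75577881) measured 117 and 122 CPM in wild type and 86.7, 94.3 and 109 CPM in the variant. All variant libraries were lower, by a log2 fold change of -0.30 (SE 0.16, 95% interval -0.65 to 0.05, edgeR adjusted p 0.676), and -0.15 after the correction for GC content and length. MAP1LC3B, the most used marker of autophagosomes (chr16:87383995-87404779), measured 93.4 and 97.4 CPM in wild type and 65.8, 77.7 and 96.2 CPM in the variant. Variant library 3 lay between the wild-type libraries and the others below them (log2 fold change -0.26, SE 0.18, edgeR adjusted p 0.739). Corrected for GC content and length, the log2 fold change of MAP1LC3B was -0.29 (SE 0.17). MAP1LC3B has a near-identical copy, MAP1LC3B2, and its count is uncertain to the extent that reads could be assigned to either.

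GABARAPL1 (chr12:10212458-10223130) spread most among the variant libraries. It measured 58.8 and 68.7 CPM in wild type and 43.2, 60.0 and 87.8 CPM in the variant, so the variant libraries held both the lowest and the highest value around an equal mean of 63.7 CPM (log2 fold change -0.00, SE 0.27, edgeR adjusted p 0.999). GABARAP (chr17:7240014-7242770) was counted at only 14 and 32 reads in wild type and 16, 17 and 21 reads in the variant. Wild-type library 2 was the highest and wild-type library 1 the lowest, and the log2 fold change of -0.36 (SE 0.43, edgeR adjusted p 0.856) was 0.33 without wild-type library 2. Of its exon length, 30.5% is shared with another gene model on the same strand and 25.2% with one on the opposite strand, and its count is uncertain to that extent. The summed level of the family was 269.6 and 289.7 CPM in wild type and 197, 233 and 294 CPM in the variant, and variant library 3 was above both wild-type libraries.

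**Figure D3:**
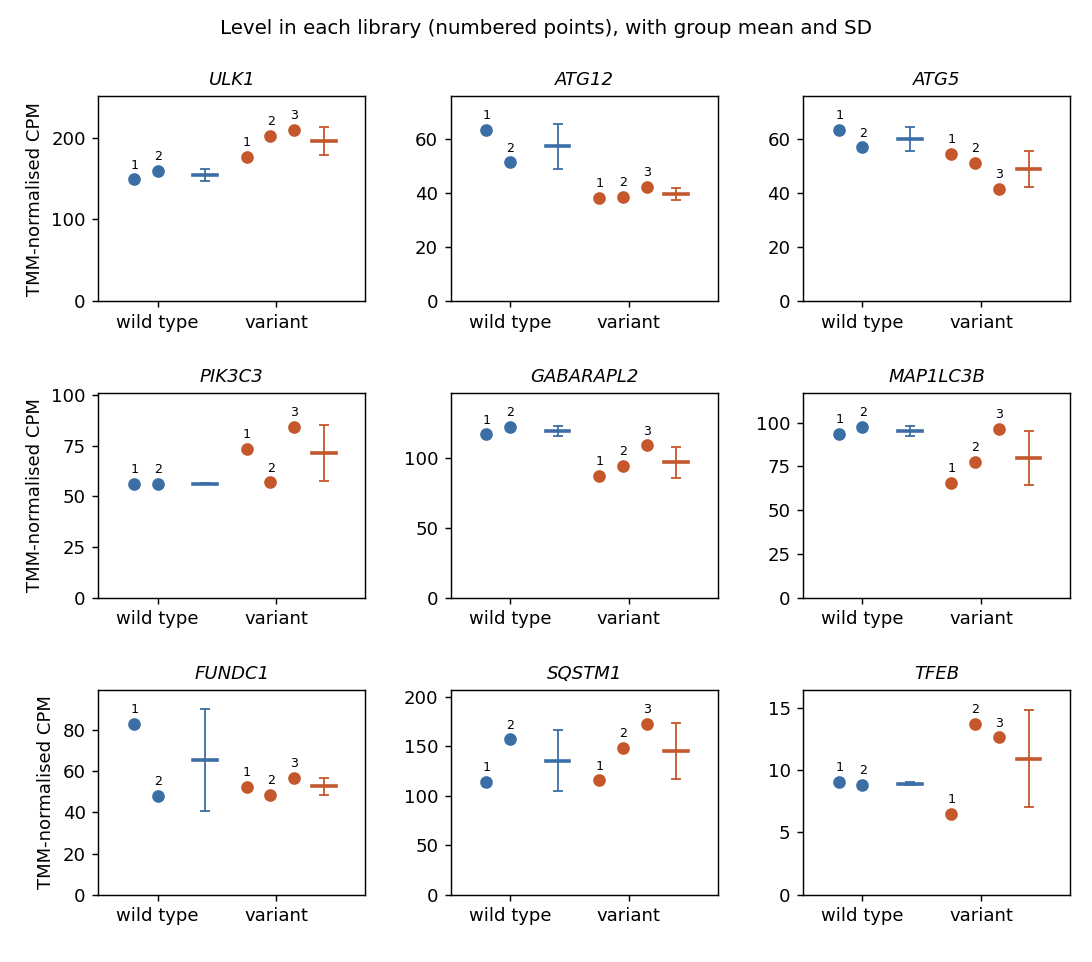
TMM-normalised CPM in each library (numbered points) for 9 members, with the group mean and SD beside them. The groups separate for ULK1, PIK3C3, ATG12, ATG5 and GABARAPL2 and overlap for MAP1LC3B, FUNDC1, SQSTM1 and TFEB. These 9 were picked for display, and the groups overlapped for 37 of all 44 members.

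The cargo receptors and their kinase TBK1 gave 5 values below 0 and 1 above, with a median of -0.18, and all 6 had groups that overlapped. SQSTM1 (p62), which links ubiquitinated cargo to LC3 (chr5:179806398-179838078), was the 1 above 0. It measured 114 and 157 CPM in wild type and 116, 148 and 173 CPM in the variant. The gap within the wild-type pair was wider than that between the means, 135 ± 30.6 and 145 ± 28.6 (log2 fold change 0.10, SE 0.21, edgeR adjusted p 0.913). NBR1, a receptor that works with SQSTM1 (chr17:43170481-43211689), measured 131 and 166 CPM in wild type and 127, 122 and 146 CPM in the variant (log2 fold change -0.17, SE 0.16, edgeR adjusted p 0.804). OPTN, a mitophagy receptor phosphorylated by TBK1 (chr10:13099449-13138308), measured 62.9 and 89.0 CPM in wild type and 49.5, 61.8 and 81.6 CPM in the variant. Wild-type library 2 and variant library 3 were the high libraries for OPTN (log2 fold change -0.24, SE 0.24, edgeR adjusted p 0.814). CALCOCO2 (-0.17), TAX1BP1 (-0.18) and TBK1 (-0.23) were similar in size. Their summed level was 567 and 715 CPM in wild type and 536, 574 and 657 CPM in the variant, so the wild-type libraries differed from each other by more than the genotypes' means did.

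Among the mitophagy regulators and receptors, 1 value was above 0 and 5 were below, with a median of -0.07. PINK1, the kinase that marks damaged mitochondria (chr1:20633455-20651511), measured 53.6 and 60.2 CPM in wild type and 47.1, 63.8 and 49.6 CPM in the variant. Variant library 2 was the highest and variant library 1 the lowest (log2 fold change -0.09, SE 0.18, edgeR adjusted p 0.917). An antisense gene covers 39.4% of its exon length, and the strand setting of the counting is not given in the sources used here. Genes on the opposite strand also share 28.1% of the exon length of WIPI1, 25.2% of GABARAP, 22.04% of SQSTM1, 19.2% of ATG101, 18.1% of ATG7 and 17.1% of BECN1. FUNDC1, an outer-membrane receptor used in hypoxia (chrX:44523639-44543001), measured 82.9 and 47.8 CPM in wild type and 52.4, 48.5 and 56.9 CPM in the variant. Wild-type library 1 stood above the other 4 libraries, and wild-type library 2 was below all of them. The log2 fold change of -0.31 (SE 0.23, edgeR adjusted p 0.740) therefore turned with the library used. It was -0.66 without wild-type library 2 and 0.14 without wild-type library 1, and -0.03 when corrected for GC content and length.

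BCL2L13 (chr22:17628855-17730855), a receptor related to the BCL2 family, measured 62.8 and 99.8 CPM in wild type and 74.4, 58.2 and 104 CPM in the variant. It was high in wild-type library 2 and variant library 3 and low in wild-type library 1 and variant library 2 (log2 fold change -0.04, SE 0.27, edgeR adjusted p 0.979). The receptor FKBP8 (chr19:18531751-18544077) had the highest level per length of all members, 158.9 CPM per kilobase of exon in wild type. It measured 438 and 484 CPM in wild type and 385, 504 and 493 CPM in the variant, with equal means of 461 CPM (log2 fold change -0.00, SE 0.16, edgeR adjusted p 0.999). USP30, the deubiquitinase that opposes mitophagy, was slightly lower in every variant library, at 36.1 and 37.0 CPM in wild type and 33.8, 32.7 and 32.2 CPM in the variant. Its difference was small against its error (log2 fold change -0.15, SE 0.16, edgeR adjusted p 0.830). FUNDC2 gave 0.09.

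Both transcription factors had values above 0 and groups that overlapped. TFEB (chr6:41683978-41736259) measured 9.03 and 8.84 CPM in wild type and 6.47, 13.7 and 12.7 CPM in the variant. Variant library 1 was below the wild-type pair and the other 2 were above it (log2 fold change 0.29, SE 0.33, 95% interval -0.44 to 1.02, edgeR adjusted p 0.838). The value was 0.56 without variant library 1, 0.10 without variant library 2, 0.18 without variant library 3 and 0.09 with the replicate number as a block. TFE3 (chrX:49028726-49043486) measured 72.6 and 97.5 CPM in wild type and 76.3, 93.7 and 107 CPM in the variant (log2 fold change 0.12, SE 0.20, edgeR adjusted p 0.897). Per kilobase of exon, TFE3 stood at 19.8 CPM in wild type and TFEB at 1.58 CPM. TFEB and TFE3 are controlled mainly by phosphorylation and location, which transcript counts do not measure.

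TFEB and TFE3 bind E-box letters, so the RefSeq promoters of the members (GRCh38.p14, 250 bases before to 50 after the start) were read for CACGTG, its extension TCACGTGA, and the 10-letter palindrome known as the CLEAR motif. Each motif reads the same on both strands, and a longer match contains the shorter. Promoters were found for 39 of the 44 tested members. CACGTG was in 3 of them (7.69%), ATG3, TBK1 and ATG14, against 7.43% of 27305 promoters. TCACGTGA was in 1 (2.56%), ATG3, against 1.04%, and the CLEAR motif was in none, against 0.381%. The TCACGTGA of ATG3 is a second site, whose CACGTG begins 5 bases after the start, and it is not in the stretch printed. The 3 promoter stretches that hold CACGTG before the start are shown because TFEB and TFE3 are themselves members, with those 6 letters in capitals, 5′ to 3′ on the gene's strand. They lie at chr3:112561963-112562020 (minus), chr12:64452049-64452119 (plus) and chr14:55411831-55411891 (minus).
ATG3: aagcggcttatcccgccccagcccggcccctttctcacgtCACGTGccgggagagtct
TBK1: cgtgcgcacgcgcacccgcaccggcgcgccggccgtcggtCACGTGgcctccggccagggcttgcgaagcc
ATG14: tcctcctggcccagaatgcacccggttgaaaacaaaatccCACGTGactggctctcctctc
The capitals begin 18, 31 and 21 bases before the start in ATG3, TBK1 and ATG14. Of these 3 genes, ATG14 was higher in the variant and ATG3 and TBK1 were lower (median log2 fold change -0.13), and of the other 36, 17 were higher and 19 lower. A match of letters is a description and not a binding site.

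The direction of the members tended to follow the GC content of their transcripts. Over the 44 members, log2 fold change and GC content had a Spearman correlation of 0.45, and over 10854 genes with a mean log2 CPM above 3 it was 0.40. The points share the same 5 libraries. Among the members with more GC (22 genes, 47.7% to 66.6%), 13 were higher in the variant and 9 lower, with a median of 0.04. Among those with less GC (22 genes, 34.8% to 46.9%), 6 were higher and 16 lower, with a median of -0.16. Corrected for GC content and length in each library, these medians were -0.02 and -0.04, the correlation was -0.08, and 10 of the 44 members had changed sign. The correction is fitted to GC content itself, so the loss of the correlation was built in. Corrected values were below 0 for all 4 Atg8 genes, 5 of 6 cargo receptor genes and 5 of 6 mitophagy genes. They were below 0 for 5 of 10 conjugation, 3 of 5 initiation, 3 of 5 lipid effector, 2 of 6 lipid kinase and 0 of 2 transcription factor genes. Some of these values were small against their SE, such as GABARAPL1 (-0.005, SE 0.26) and FUNDC1 (-0.03, SE 0.18). The corrected median over all genes was 0.007, and the share of all genes below 0 was not counted. The median absolute log2 fold change of the members went from 0.15 to 0.11, and ATG12 was the 1 member that kept an unadjusted edgeR p under 0.05.

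**Figure D4:**
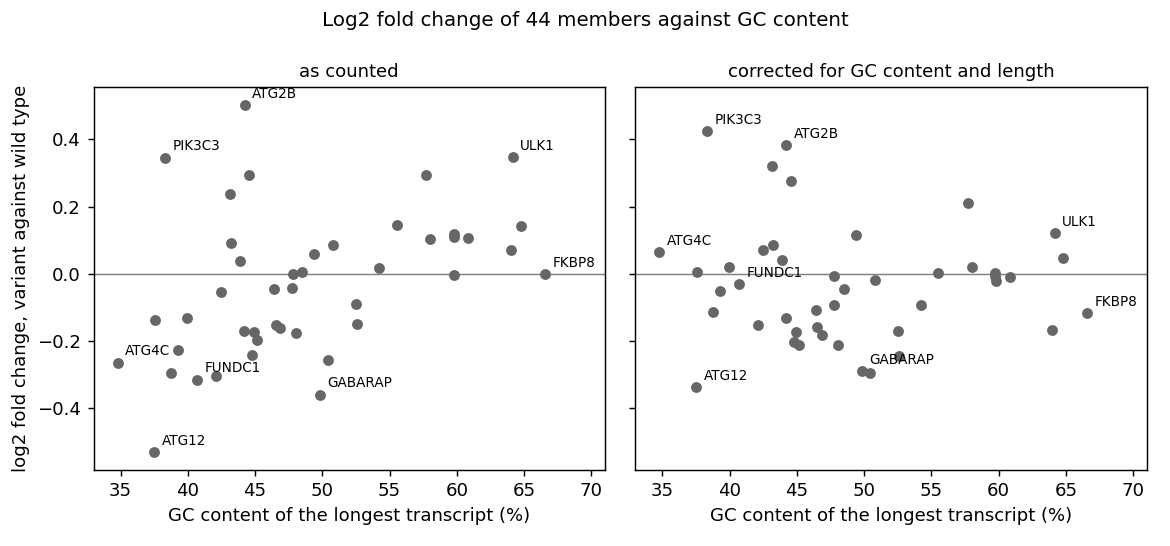
Log2 fold change of 44 members, variant against wild type, by the GC content of their longest transcript (%), as counted (left) and corrected for GC content and length in each library (right). The upward slope on the left, a Spearman correlation of 0.45, is absent on the right (-0.08), because the correction is built to remove it.

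Per kilobase of exon, the wild-type levels of the members after FKBP8 were led by FUNDC1 (46.7 CPM), GABARAPL2 (39.3 CPM) and ULK1 (20.3 CPM). The lowest were UVRAG (2.73 CPM), TFEB (1.58 CPM), ATG10 (1.47 CPM) and GABARAP (0.583 CPM). The place of GABARAP is uncertain, because part of its exon length is shared with other gene models. The order between neighbours such as ULK1 and TFE3, or FUNDC1 and GABARAPL2, did not exceed the spread of their libraries. FUNDC1 measured 82.9 CPM in wild-type library 1 and 47.8 CPM in wild-type library 2. Lengths were those of all annotated exons of a gene together, which need not be the transcripts present.

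Of 82 other genes of the pathway, 78 were tested, and none passed the adjusted threshold either. At an unadjusted p under 0.05, PHB2 and SEC62 were lower in the variant, 2 of 78 against 3.51% of all genes. PHB2, an inner mitochondrial membrane protein that acts as a mitophagy receptor, measured 427 and 449 CPM in wild type and 332, 316 and 394 CPM in the variant. Its groups did not overlap, and its log2 fold change of -0.33 (SE 0.14, edgeR adjusted p 0.642) was -0.32 once GC content and length were corrected. SEC62, a receptor for endoplasmic reticulum turnover, measured 99.7 and 93.8 CPM in wild type and 81.7, 58.0 and 77.8 CPM in the variant (log2 fold change -0.42, SE 0.18, edgeR adjusted p 0.649, corrected -0.27). By list, 7 of 12 genes of lysosomal fusion and 11 of 24 genes of mTORC1 and AMPK control were higher in the variant. So were 6 of 17 other mitophagy genes, 1 of 8 receptor genes, mainly for the endoplasmic reticulum, and 5 of 12 other core autophagy genes. The share of all tested genes was 50.5%. The list of 8 also held NCOA4 and WDFY3, which are not receptors for the endoplasmic reticulum, and WDFY3 (0.05) was the 1 counted as higher. In the same order, the median log2 fold changes of the 5 lists were 0.03, -0.02, -0.12, -0.11 and -0.02.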

How the data were processed

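The deposited table holds raw counts of reads per Ensembl gene for each library, made by the authors with HISAT2, SAMtools and HTSeq on hg38, per the submitters' processing notes. Per the labels' protocols, RNA was taken with TRIzol and a strand-specific mRNA library was read as single-end DNBSEQ reads. The versions, annotation, strand setting and any gene filter are not given in the sources used here. The lowest count in the table was 3, and 0 columns were left unmatched to a library.

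Genes were filtered with filterByExpr by group (16310 of 16677 kept), scaled by TMM and tested with edgeR 4.0.16 in R 4.3.3 (quasi-likelihood F test, robust, two-sided, all 5 libraries, genotype the only term), with Benjamini-Hochberg adjustment over all tested genes and a threshold of 0.05. The common biological coefficient of variation was 19.8%. Positions, exon lengths and GC content came from GENCODE release 29 (GRCh38, the same assembly as hg38), and promoters from RefSeq. The GC and length correction fitted 5-df splines within each library to genes with both values and a mean log2 CPM above 3. It was then applied to all 16560 genes that had both values. Chromosome medians were taken where the mean log2 CPM exceeded 3.

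The members, the lists and the rules were chosen with earlier results of these data known. Values by library are given for 23 members: those with an unadjusted p under 0.05, with separate groups and an log2 fold change of 0.3 or more in size, with the largest change or highest CPM of their role, or with a highest library at least 1.5 times the lowest of the other group, and for all Atg8 proteins, both transcription factors and PINK1. ATG10, USP30 and some others are given beyond that rule. Other pathway genes are named at an unadjusted p under 0.05, and 1 of them, with the list that holds it, is not reported here.

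Counts were simulated for 16160 genes, with 50 genes drawn at random and altered at each fold. The share of altered genes recovered was 10% at 1.5-fold, 40% at 2-fold, 88% at 4-fold and 94% at 8-fold, with 13 false among 129 calls. With no gene changed the test made 2 calls. Alternatives were RLE and upper-quartile scaling, no filter, at least 10 counts in every library, DESeq2 1.42.0, limma-voom (limma 3.58.1), the replicate block, the GC and length correction and leaving out each library. Values relative to the chromosome's median, and counts with 1 wild-type library left, were added after seeing the data. Proteins were not analysed here.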

Additional observations from a re-analysis of the deposited data

How the results depend on the processing

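No member passed the adjusted threshold under any alternative, and the smallest adjusted p of a member was 0.314 (ATG12, DESeq2). Over all genes DESeq2 called 31, edgeR without variant library 3 called 4 and edgeR without wild-type library 1 called 1. The 2 members past an unadjusted p of 0.05 became 1 with GC content and length corrected (ATG12) and 5 with the replicate block (ATG12, ATG2B, GABARAPL2, MAP1LC3B and OPTN). With 1 library left out the number ran from 0 (without wild-type library 1) to 4 (without variant library 3: ATG12, ATG2B, GABARAPL2 and MAP1LC3B). Of all tested genes, 7.62% had an unadjusted edgeR p under 0.05 in the main fit. That share was 6.34% with GC content and length corrected, 9.55% with the replicate block and 10% without variant library 3. The median log2 fold change of the members, -0.02, ran from -0.0768 (without wild-type library 1) to 0.0942 (without wild-type library 2). The cause was not tested. The replicate numbers share only a number: the deviations of same-numbered libraries correlated at 0.154 and -0.209 in the 2 pairs, and variant library 3 stands alone in its block, so that fit compares 2 libraries with 2.

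Of 23 members described by library, 6 turned direction under another scaling, filter, block or correction, all from log2 fold changes of 0.11 or less in size. With GC content and length corrected these were WIPI2 (-0.0935), ATG4A (0.072) and ATG4B (-0.0102). With the replicate block they were WIPI2 (-0.0479) and SQSTM1 (-0.0306). At least 10 counts in every library turned GABARAPL1 (0.000905) and FKBP8 (0.000618), and upper-quartile scaling turned GABARAPL1 (0.00306). Relative to the chromosome's median, ATG14 was -0.0167 and GABARAPL1 0.0831. Leaving out 1 library turned 13 of the 23. The ranges were -0.0913 to 0.509 for ATG14, -0.0759 to 0.117 for WIPI2, -0.316 to 0.267 for ATG4A, -0.00249 to 0.225 for ATG4B and -0.822 to 0.333 for GABARAP. They were -0.304 to 0.213 for GABARAPL1, -0.111 to 0.355 for SQSTM1, -0.332 to 0.00348 for NBR1, -0.471 to 0.0315 for OPTN and -0.657 to 0.136 for FUNDC1. For BCL2L13, FKBP8 and TFE3 they were -0.338 to 0.331, -0.0723 to 0.112 and -0.0776 to 0.349. The other 10 kept their direction, with ranges of 0.297 to 0.416 for ULK1, -0.282 to -0.105 for BECN1, 0.212 to 0.486 for PIK3C3, 0.33 to 0.764 for ATG2B and -0.378 to -0.187 for ATG5. They were -0.672 to -0.373 for ATG12, -0.412 to -0.134 for MAP1LC3B, -0.397 to -0.231 for GABARAPL2, -0.234 to -0.00132 for PINK1 and 0.0976 to 0.561 for TFEB. A fit with 1 wild-type library left assumes that it varies like the variant libraries.

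With 2 libraries against 3, the test recovered 10% of simulated 1.5-fold changes, so differences of that size could be missed here. The altered genes were drawn from all levels, and the simulated libraries held no GC or chromosome differences. The median SE was 0.18 for the members and 0.23 for all tested genes, so the 10% is not a rate for the members. GABARAP, at 14 to 32 reads, had the fewest reads of the members, and its count is also uncertain because it shares exon length with other gene models.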

Other observations

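Among genes of mitophagy outside the set, BNIP3 had the largest log2 fold change below 0 of its list, and it is named after its values were seen. BNIP3, an outer-membrane receptor induced in hypoxia, measured 38.6 and 28.1 CPM in wild type and 17.7, 32.1 and 17.7 CPM in the variant. Variant library 2 lay between the wild-type libraries and the other 2 below both (log2 fold change -0.57, SE 0.29, edgeR adjusted p 0.667). Its paralog BNIP3L measured 53.0 and 50.4 CPM in wild type and 44.6, 47.9 and 49.2 CPM in the variant, lower in every variant library but by little (log2 fold change -0.13, SE 0.16, edgeR adjusted p 0.857).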
